A study of Mus musculus with 11 samples.

Results

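The cluster of miR-106b, miR-93 and miR-25 is a group of 3 microRNA hairpins in an intron of Mcm7, the gene of a subunit of the replicative DNA helicase. The mature arms mmu-miR-106b-5p, mmu-miR-106b-3p, mmu-miR-93-5p and mmu-miR-25-3p (mmu, for mouse, is left off below) were taken by name from the deposited table. They are 4 of 1592 listed miRNAs and of 2304 listed features. All 4 were found, and all 4 passed the low-count filter in sperm. Levels were followed across 11 mouse small RNA libraries.

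The series compared small RNAs of sperm, oocytes and 2PN embryos (zygotes in which both pronuclei are still visible) when Dicer or Drosha is deleted in the male germline. Sperm came from the cauda epididymis of adult males on the C57BL/6 background, with 2 libraries from wild-type (WT) males, 2 from germline Dicer conditional knockouts (cKO) and 3 from germline Drosha cKOs. Deletion was by Cre and loxP, and the Cre line is not named in the sources used here. There was 1 library of superovulated WT oocytes, and 1 each of 2PN embryos made by injecting WT, Dicer cKO or Drosha cKO sperm into oocytes. Nothing in the labels ties replicates to different animals. The p-values therefore reflect only the spread between these samples, which may be technical.

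Listed reads, the sum over all features of the table, ran from 12003 to 278890 in sperm and from 2951 to 8967 in oocyte and 2PN libraries. Drosha cKO replicates 2 and 3 were the shallowest sperm libraries, at 12003 and 15921 listed reads. Marker miRNAs moved with genotype in sperm. A list of 8 male germ cell markers, such as miR-34c-5p and miR-741-3p, took up 15.6% to 17.1% of the listed reads of WT sperm. It took up 0.794% to 0.850% with Dicer deleted and 1.42% to 2.35% with Drosha deleted. The list of 7 epithelial markers (the miR-200 family, miR-205-5p and miR-203-3p) held 1.69% to 1.86%, 13.8% to 16.4% and 11.5% to 14.4% in the same order, with reads for all 7 in every sperm library. The 7 blood cell markers held 0.513% to 0.525%, 5.02% to 5.05% and 2.16% to 2.47%, with miR-155-5p at 0 in Drosha cKO replicate 3. Of these 7, miR-451a, miR-144-3p, miR-150-5p and miR-223-3p were called higher in both cKOs. Of all tested features, 16.1% were called higher in Dicer cKO and 22.1% in Drosha cKO sperm. In Drosha cKO sperm miR-142-5p was called lower, at -2.68 on the log2 scale (edgeR adjusted p = 0.0277), and miR-142-3p was at -0.79 without a call. The 5 stromal markers held 0.315% to 0.795%, 1.87% to 2.61% and 1.08% to 1.69%. Of these 5, 2 were called higher in Dicer cKO and 0 in Drosha cKO sperm, beside the same 16.1% and 22.1%. In Drosha cKO sperm their median log2 change was 0.65, with miR-199a-3p at -0.02. The marker shares differ between the same WT and cKO libraries that are compared below, and their part in those results was not tested. In bulk sperm, fewer cells of a type and less RNA per cell cannot be told apart.

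MicroRNA hairpins are cut from a primary transcript in the nucleus by Drosha, and Dicer then cuts the hairpin into a short duplex of a 5p and a 3p arm. An Argonaute protein usually keeps mainly a single arm of the duplex, and the seed, bases 2 to 8 of that arm, directs it to target mRNAs. This cluster is a paralog of the miR-17-92 cluster; miR-106b-5p and miR-93-5p belong to the miR-17 seed family, known for targets in cell cycle control, while miR-25-3p belongs to the miR-92 family.

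The mature sequences are shown because their seeds divide the cluster into 3 groups, and miR-17-5p and miR-20a-5p, from the miR-17-92 cluster, are shown because they share the seed of miR-106b-5p and miR-93-5p. All are from RefSeq on GRCm38.p6, written 5′ to 3′ with the seed in capitals.
miR-106b-5p: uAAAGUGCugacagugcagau
miR-93-5p: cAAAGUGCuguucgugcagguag
miR-17-5p: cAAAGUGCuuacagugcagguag
miR-20a-5p: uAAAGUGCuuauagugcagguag
miR-25-3p: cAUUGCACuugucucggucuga
miR-32-5p: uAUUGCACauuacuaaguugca
miR-106b-3p: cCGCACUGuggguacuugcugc

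In GRCm38.p6 coordinates on the minus strand, miR-106b-5p lies at chr5:138165787-138165807, miR-106b-3p at chr5:138165746-138165767, miR-93-5p at chr5:138165574-138165596 and miR-25-3p at chr5:138165332-138165353. The 3 hairpins span 498 bases, inside Mcm7 at chr5:138164583-138172111. In the GENCODE M1 annotation, matched by exact hairpin sequence, each hairpin lay in an intron of 2 of 10 Mcm7 transcripts, and this was intron 13 of the full-length transcript. Mir93 and Mir25 also each overlapped an exon of 1 transcript. The remaining transcripts, 8 for Mir106b and 7 each for Mir93 and Mir25, did not reach the hairpin.

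The seed AAAGUGC was shared by 7 listed miRNAs with a sequence and AUUGCAC by 6, whereas CGCACUG was found in miR-106b-3p alone among the 1333 listed miRNAs matched to a sequence by name. Aligned from the 5′ end, miR-106b-5p differed from miR-93-5p at 5 of 21 bases and from miR-17-5p at 3. The rule for reads that fit several such sequences (not given in the sources used here) can move reads between them, so the split of reads between near relatives is uncertain. The miR-106b hairpin, chr5:138165737-138165818 on the minus strand, is shown with its 5p and then its 3p arm in capitals because the arms behaved differently in sperm.
Mir106b: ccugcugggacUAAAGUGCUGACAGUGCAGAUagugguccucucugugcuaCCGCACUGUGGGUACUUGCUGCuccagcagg

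In WT sperm the cluster was mostly miR-93-5p. Levels are given as CPM, the reads of a miRNA per 1000000 listed reads of its library. miR-93-5p stood at 14323 and 12550 CPM in the 2 WT libraries, at 2521 and 2099 in Dicer cKO, and at 3359, 1666 and 1570 in Drosha cKO sperm. Both WT libraries were above all 5 cKO libraries, and the Dicer and Drosha cKO libraries overlapped. miR-25-3p stood at 1540 and 1108 CPM in WT, 431 and 509 in Dicer cKO, and 327, 167 and 314 in Drosha cKO sperm. Here too the WT libraries were the highest. Every Drosha cKO library was below both Dicer cKO libraries in CPM, but on only 33, 2 and 5 reads. The Dicer cKO libraries held 0.0431% and 0.0509% of listed reads. Exact 95% counting intervals of Drosha cKO replicates 2 and 3, 0.00202% to 0.0602% and 0.0102% to 0.0733%, cover both shares, so these 2 libraries are not set apart from Dicer cKO.

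The arms of miR-106b were near each other in WT sperm and far apart in both cKOs. miR-106b-3p stood at 695 and 649 CPM in WT, 106 and 92.5 in Dicer cKO, and 287, 83.3 and 0 in Drosha cKO sperm. These are 51 and 181 reads, 13 and 10 reads, and 29, 1 and 0 reads; 3 reads, the limit that a count of 0 allows, equal 188 CPM in Drosha cKO replicate 3. miR-106b-5p went the other way, at 545 and 685 CPM in WT, 3073 and 2552 in Dicer cKO, and 2061, 2416 and 1507 in Drosha cKO sperm. The 2 WT libraries were the lowest for the 5p arm and the highest for the 3p arm. The share of all features that separate WT from cKO libraries in CPM, as each member does, was not counted. With library totals, as in CPM, the median log2 change of all tested features from WT was 0.62 in Dicer cKO and 1.04 in Drosha cKO sperm.

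**Figure D1:**
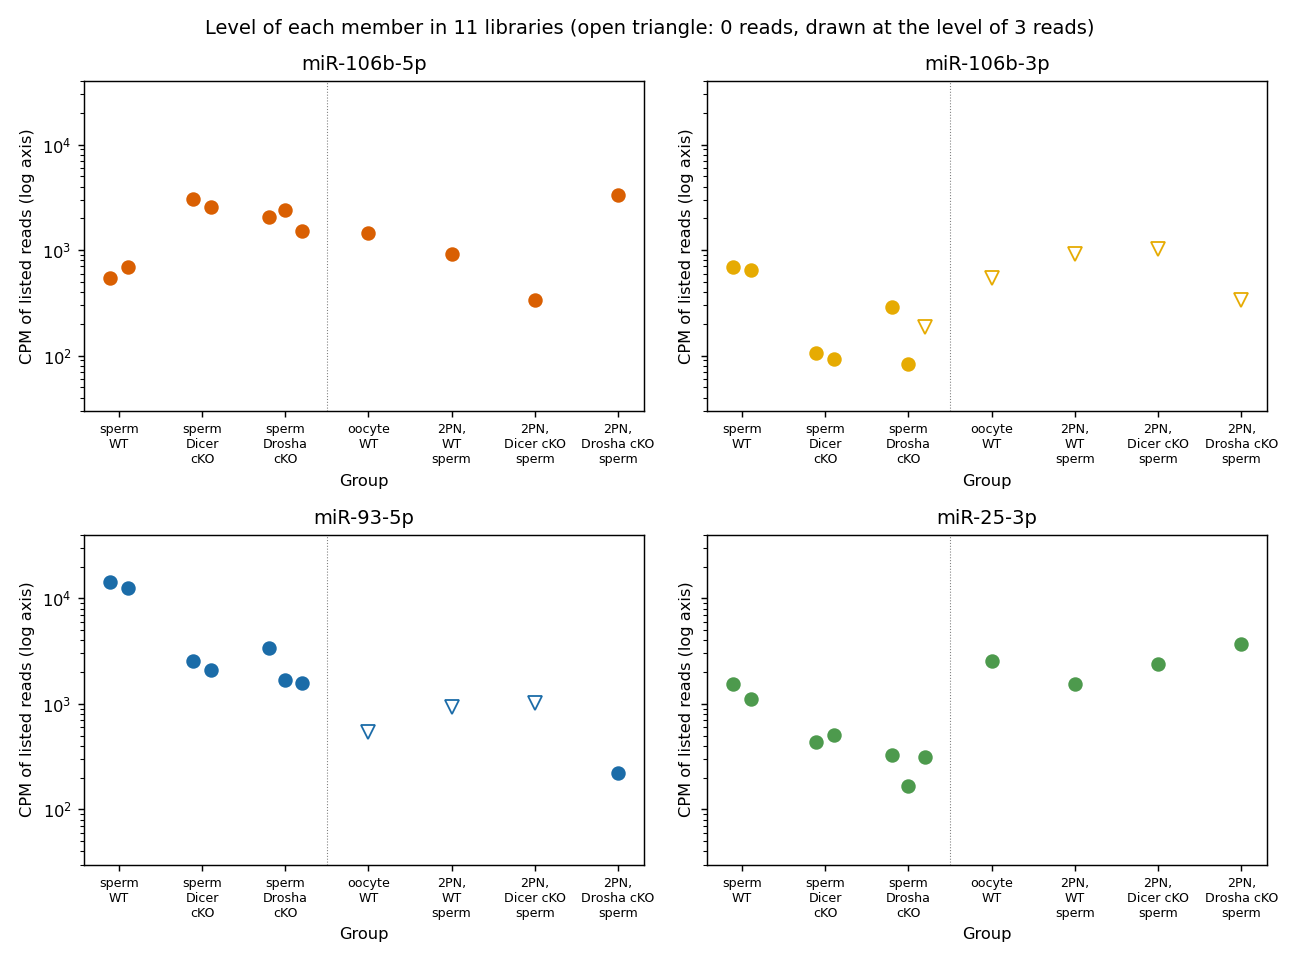
Level of each member (CPM of listed reads, log axis) in every library, by group; each point is 1 library and an open triangle is a library with 0 reads, drawn at the level of 3 reads. miR-93-5p, miR-25-3p and miR-106b-3p are highest among sperm in the 2 WT libraries, whereas miR-106b-5p is lowest there. The share of all features ordered in these ways was not counted.

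Ordered by mean level, miR-93-5p led WT sperm at 13436 ± 1254 CPM (SD, n = 2), followed by miR-25-3p at 1324 ± 305, miR-106b-3p at 672 ± 32.6 and miR-106b-5p at 615 ± 98.8. The last 2 of these did not differ beyond their spread. In Dicer cKO sperm the order was miR-106b-5p at 2813 ± 369 CPM (SD, n = 2), miR-93-5p at 2310 ± 298, miR-25-3p at 470 ± 54.9 and miR-106b-3p at 99.1 ± 9.35. In Drosha cKO sperm it was miR-93-5p at 2198 ± 1006 CPM (SD, n = 3), miR-106b-5p at 1995 ± 458, miR-25-3p at 269 ± 89.1 and miR-106b-3p at 124 ± 148, the last 2 with overlapping ranges. The leading pair overlapped in their ranges in Drosha cKO sperm and nearly met in Dicer cKO sperm, where the lowest miR-106b-5p library, at 2552, was just above the highest miR-93-5p library, at 2521. The mature arms are of near-equal length, but ligation and amplification can differ between sequences, so orders between miRNAs describe reads.

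The comparison of Dicer cKO with WT sperm asks what loss of Dicer in the germline does to sperm small RNAs. miR-93-5p, miR-106b-3p and miR-25-3p fell and miR-106b-5p did not pass the test. The fold changes below are log2 values from edgeR on counts with TMM factors, whose test uses all 7 sperm libraries and adjusts over 335 features. miR-93-5p changed by -3.23 (SE 0.572, edgeR adjusted p = 0.000408), which held in all 19 alternative settings tried. miR-106b-3p changed by -3.45 (SE 0.879, edgeR adjusted p = 0.00401). miR-25-3p changed by -2.14 (SE 0.633, edgeR adjusted p = 0.0110). miR-106b-5p was higher in 2 of 2 Dicer cKO libraries, with a log2 value of 1.42 (SE 0.610, 95% interval 0.12 to 2.71, edgeR adjusted p = 0.0671). Thus 3 of 4 members were called lower, beside 31.0% of all tested features called lower, 16.1% higher and 47.2% in either direction. The median log2 value over all tested features was 0.03.

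Calls for members other than miR-93-5p depended on the processing. miR-25-3p lost its call in 7 of the 19 alternatives, among them those without Dicer cKO replicate 1 (edgeR adjusted p = 0.0965) or replicate 2 (0.0904) and the one scaled by the authors' RPM divisors (0.260). miR-106b-5p gained a call as higher in 9 of 19, including the fit of WT and Dicer cKO libraries only, with a log2 value of 1.92 (edgeR adjusted p = 0.00810).

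Drosha cKO sperm were set against WT in the same way, and miR-93-5p, miR-25-3p and miR-106b-3p fell. On the log2 scale miR-93-5p changed by -3.50 (SE 0.50, edgeR adjusted p = 7.54e-05), miR-25-3p by -3.10 (SE 0.603, edgeR adjusted p = 0.000643) and miR-106b-3p by -2.92 (SE 0.782, edgeR adjusted p = 0.00566). All 3 calls held in all 19 alternatives. miR-106b-5p had a log2 value of 0.66 (SE 0.567, 95% interval -0.54 to 1.87, edgeR adjusted p = 0.333), although its CPM was higher than in both WT libraries in 3 of 3 Drosha cKO libraries. Here 3 of 4 members were called lower, beside 33.1% of all tested features called lower, 22.1% higher and 55.2% in either direction, with a median of 0.05 over all tested features. Without WT replicate 1 the log2 value of miR-106b-5p turned to -0.22, and without Drosha cKO replicate 1 that of miR-106b-3p was -4.97. Both comparisons use the same 2 WT libraries, so they are not independent of each other.

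CPM and TMM scale the libraries differently, which matters most for miR-106b-5p. With library totals alone the median of all tested features moved to 0.62 in the Dicer and 1.04 in the Drosha comparison, and miR-106b-5p to 2.18 and 1.69, past the threshold as higher in both (edgeR adjusted p = 0.00386 and 0.00992). This was the only one of the 19 alternatives that gave it a call in Drosha cKO sperm. Relative to those medians miR-106b-5p stood 1.57 and 0.65 higher, against 1.38 and 0.61 with TMM factors. The other 3 arms stayed below the median of all tested features under each of the 4 scalings tried, and miR-106b-5p stayed above it.

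Dicer and Drosha cKO sperm were also set against each other. No member passed the test, where 0% of 335 features were called by edgeR at an adjusted p of 0.05. DESeq2 called 18 features, and 65 features but no member had an unadjusted edgeR p under 0.05. The log2 value of Dicer cKO minus Drosha cKO was 0.75 for miR-106b-5p (95% interval -0.41 to 1.91, edgeR adjusted p = 0.44). For miR-25-3p it was 0.96 (-0.32 to 2.24) and for miR-93-5p 0.27 (-0.76 to 1.30). For miR-106b-3p it was -0.53, with an interval from -2.29 to 1.23. All 4 intervals include 0 and are wide, so the data do not show that the cKOs have the same levels.

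**Figure D2:**
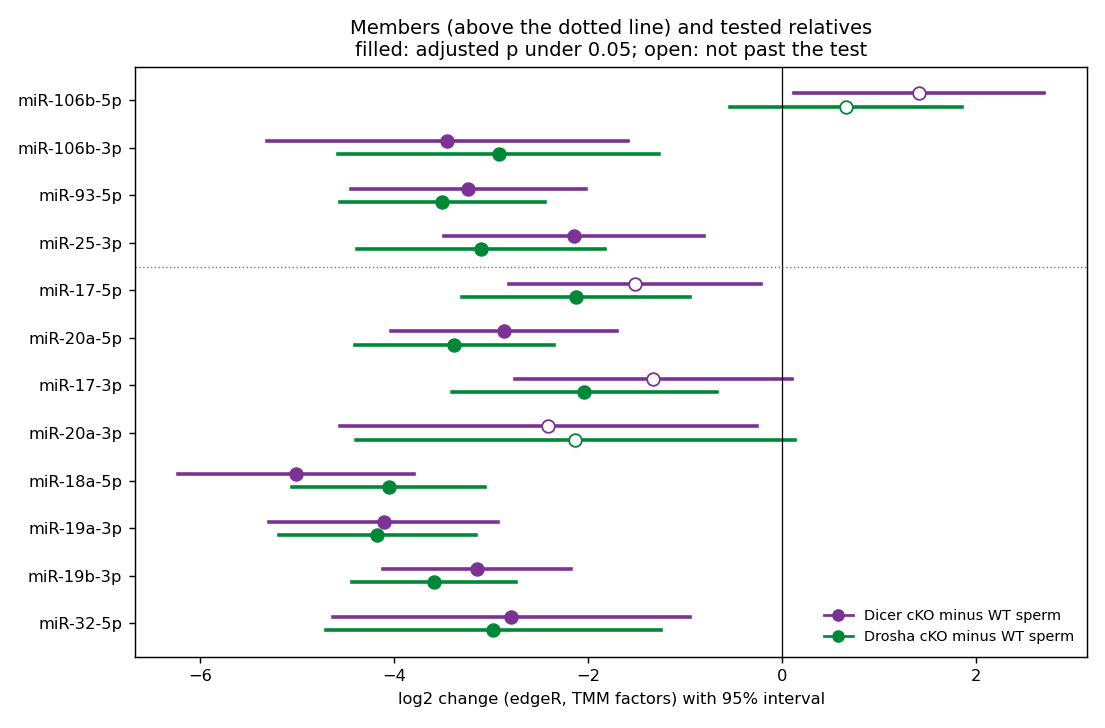
Log2 change in sperm against WT with its 95% interval (edgeR, TMM factors) for the 4 members, above the dotted line, and the tested relatives, with the Dicer and Drosha cKO comparisons in separate colours; filled points passed an adjusted p of 0.05. miR-106b-5p is the only miRNA shown to the right of 0, at 1.42 and 0.66 with open points.

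The summed level of the cluster fell, and its make-up changed. The 4 members held 1.71% and 1.50% of listed reads in WT sperm, 0.613% and 0.525% in Dicer cKO, and 0.603%, 0.433% and 0.339% in Drosha cKO sperm. The means of 1.60% ± 0.149 (SD, n = 2), 0.569% ± 0.0621 (SD, n = 2) and 0.459% ± 0.134 (SD, n = 3) make WT higher by 2.82-fold and 3.50-fold. The WT libraries did not overlap with either cKO group. On the RPM of the authors, WT was higher by 2.93-fold and 7.81-fold, with the summed level of WT replicate 1, at 368.7 RPM, almost equal to the 368.3 RPM of Dicer cKO replicate 2 and far below the 1507 RPM of WT replicate 2. An exact two-sided permutation test gave p = 0.333 and p = 0.2 on either scale, the smallest that 2 against 2 and 2 against 3 libraries allow.

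miR-93-5p made up 83.7% of the members' reads in both WT libraries. In Dicer cKO sperm it made up 41.1% and 40.0%, and in Drosha cKO sperm 55.7%, 38.5% and 46.3%. miR-106b-5p made up 3.19% and 4.57% in WT, then 50.1% and 48.6% in Dicer cKO, and 34.2%, 55.8% and 44.4% in Drosha cKO sperm. Neither cKO group overlapped with WT in these shares. The share of miR-25-3p did not separate the groups, at 9.0% and 7.39% in WT, then 7.03% and 9.68% in Dicer cKO, and 5.42%, 3.85% and 9.26% in Drosha cKO sperm. The share of miR-106b-3p was 4.06% and 4.33% in WT but 1.72% and 1.76% in Dicer cKO sperm, while Drosha cKO sperm ranged from 0% to 4.76%, across the WT values.

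**Figure D3:**
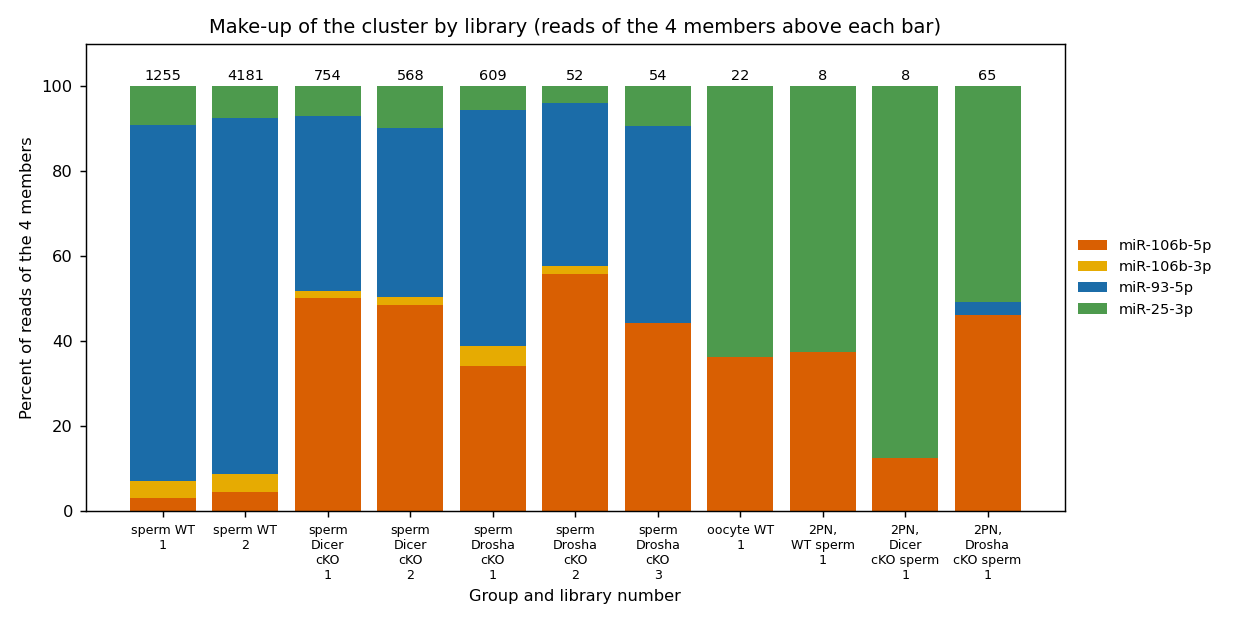
Make-up of the cluster in each library, as the percent of the reads of the 4 members that each member holds, with the number of reads above each bar. miR-93-5p fills 83.7% of both WT sperm bars and at most 55.7% of any cKO sperm bar, and it is absent or at 3.08% in oocyte and 2PN libraries that hold 8 to 65 reads.

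Both arms of the miR-106b hairpin shown above were read deeply enough in most sperm libraries to compare them. The 5p arm held 44.0% of the miR-106b reads (95% exact interval 33.6% to 54.8%) in WT replicate 1 and 51.3% (46.1% to 56.5%) in replicate 2. In Dicer cKO sperm it held 96.7% (94.4% to 98.2%) and 96.5% (93.7% to 98.3%). In Drosha cKO sperm it held 87.8% (82.9% to 91.6%) of 237 reads, 96.7% (82.8% to 99.9%) of 30 reads and 100% (85.8% to 100%) of 24 reads. All 5 cKO libraries were above both WT libraries, and their intervals did not overlap with the WT intervals. Such intervals, and the 3-read limits, cover counting error only. The means differed by 48.9 percentage points between Dicer cKO and WT and by 47.2 between Drosha cKO and WT, with the smallest possible exact permutation p of 0.333 and 0.2.

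**Figure D4:**
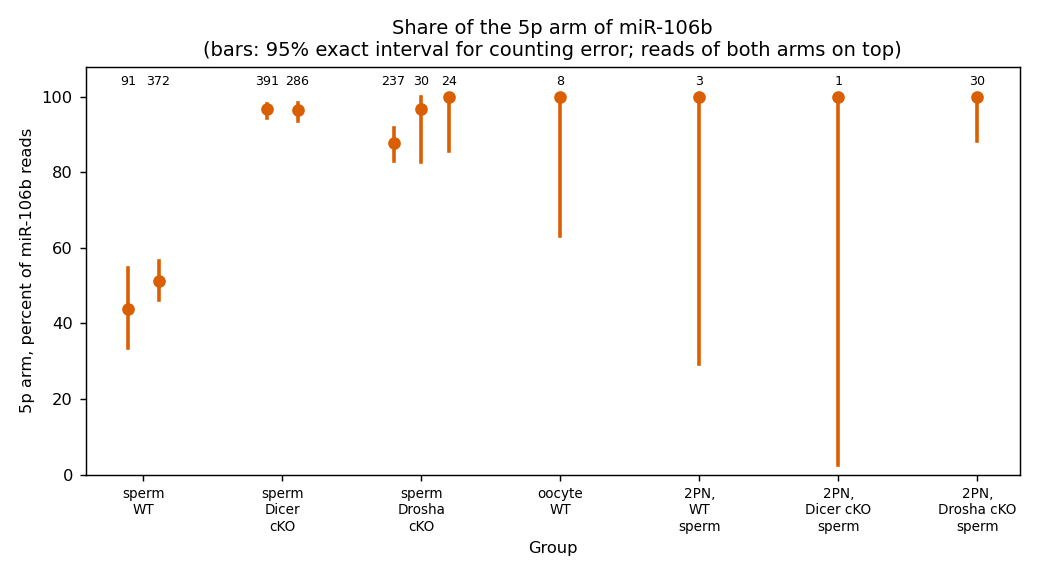
Percent of miR-106b reads on the 5p arm in each library, with the 95% exact interval for counting error and the number of reads of both arms above each point. The WT sperm libraries are at 44.0% and 51.3%, and the 5 cKO sperm libraries are between 87.8% and 100%.

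Arms of 1 hairpin share their library and scaling, and a scaling factor enters both alike. The test of this difference was added after the reads of the arms had been seen. For miR-106b the log2 change of the 5p arm exceeded that of the 3p arm by 4.87 in Dicer cKO sperm (edgeR adjusted p = 0.00621 over 55 hairpins with both arms tested). In Drosha cKO sperm the excess was 3.59 (edgeR adjusted p = 0.0190). In these tests 7.27% and 5.45% of hairpins were called. The other hairpins called were miR-130b, miR-6914 and miR-15b in Dicer cKO sperm, and miR-15b and miR-9 in Drosha cKO sperm, named here after their values were seen. The median absolute difference between arms was 0.62 and 1.09 over the 55 hairpins. Between Dicer and Drosha cKO sperm the miR-106b difference was 1.28, and its adjusted p was 0.701 in a test that called 0% of hairpins.

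The arm result rested on few libraries. In the Dicer comparison, leaving out Dicer cKO replicate 1 or 2 gave adjusted p = 0.0562 and 0.0721 in edgeR with differences of 4.86 and 4.94. In the Drosha comparison the difference lost its call but kept most of its size, at 3.29 without WT replicate 1 (edgeR adjusted p = 0.0623), 3.29 without Drosha cKO replicate 2 (0.0905) and 3.34 without replicate 3 (0.0801). Without both of these shallow Drosha cKO libraries it was 2.93 (0.193). Without Drosha cKO replicate 1, which holds 29 of the 30 miR-106b-3p reads of its group, it was 5.73.

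**Figure D5:**
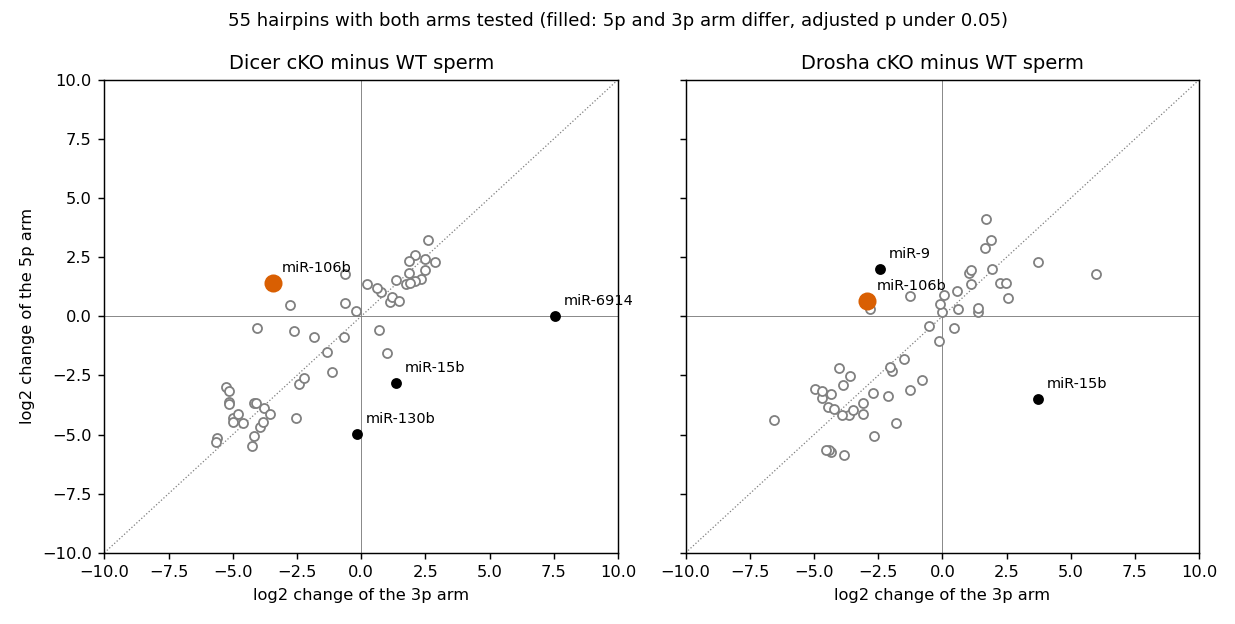
Log2 change of the 5p arm against that of the 3p arm in Dicer cKO and Drosha cKO sperm against WT for 55 hairpins with both arms tested; filled points differ between arms at an adjusted p of 0.05 and the large orange point is miR-106b. Its 5p arm lies at 1.42 and 0.66 while its 3p arm lies at -3.45 and -2.92.

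The passenger arms of the other hairpins of the cluster were almost unread. miR-93-3p had 3 and 4 reads in WT sperm, 1 in the oocyte library and 0 in the other 8. miR-25-5p had 2 reads in WT replicate 2 and 0 in the other 10 libraries. Neither was tested.

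Of the paralogous miR-17-92 cluster, 7 of 12 listed arms were tested, and it held no arm that was called higher. In Dicer cKO sperm 4 of 7 fell, beside 31.0% of all tested features, with a median log2 change of -2.86 over the 7 and 0.03 over all. In Drosha cKO sperm 6 of 7 fell, beside 33.1%, with a median of -3.38 against 0.05. The largest changes were in miR-18a-5p, at -5.01 and -4.05 (edgeR adjusted p = 1.46e-05 and 1.08e-05), and miR-19a-3p, at -4.11 and -4.17. miR-19b-3p, the most read arm of that cluster, changed by -3.14 and -3.59, and miR-20a-5p by -2.86 and -3.38. miR-17-5p had -1.52 in Dicer cKO (edgeR adjusted p = 0.0523) and fell by 2.13 in Drosha cKO sperm (edgeR adjusted p = 0.00480), and miR-17-3p had -1.33 and fell by 2.03. miR-20a-3p had -2.41 and -2.13 with no call. The arms of miR-17 differed by -0.19 and -0.09 and those of miR-20a by -0.45 and -1.25, none of them called. The miR-106a-363 cluster had 10 listed arms, and none passed the low-count filter.

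Within the AAAGUGC seed group miR-106b-5p held a larger share of the reads in both cKOs than in WT sperm. Of the 5 other miRNAs of the group 2 were tested, and miR-20a-5p fell in both cKOs whereas miR-17-5p was called in the Drosha comparison alone. The group as a whole stood at 35406 and 41005 CPM in WT, 13156 and 11124 in Dicer cKO, and 13068, 8664 and 7600 in Drosha cKO sperm. miR-20a-5p and miR-93-5p led it in every sperm library but Drosha cKO replicate 2 and Dicer cKO replicates 1 and 2, where miR-106b-5p was among the 2 most read, with 29, 378 and 276 reads. miR-106b-5p held 1.54% and 1.67% of the group's reads in WT, 23.4% and 22.9% in Dicer cKO, and 15.8%, 27.9% and 19.8% in Drosha cKO sperm. All 5 cKO libraries were above WT by a wide margin. In the AUUGCAC group, miR-32-5p was tested besides miR-25-3p. It stood at 436 and 1284 CPM in WT, 138 and 333 in Dicer cKO, and 178, 83.3 and 502 in Drosha cKO sperm, and fell by 2.79 and 2.97 on the log2 scale (edgeR adjusted p = 0.0150 and 0.00654). Its WT and Drosha cKO libraries overlapped in CPM.

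Likeness of pattern was measured as the root mean square difference of mean-centred log2 CPM over the 7 sperm libraries, as a description without a test. The libraries share depth and genotype across all miRNAs, so likeness says nothing of shared control. miR-93-5p was most like miR-20a-5p (0.28), miR-19b-3p (0.31) and miR-741-3p (0.39), the last a male germ cell marker. miR-25-3p was most like miR-130a-3p (0.44), miR-871-3p (0.46), another marker of that list, and miR-362-3p (0.48). miR-106b-5p was most like miR-31-3p (0.24), miR-26b-5p (0.28) and miR-29b-3p (0.28). Of these, miR-31-3p and miR-29b-3p rose in Dicer cKO sperm, by 1.74 and 1.17 on the log2 scale (edgeR adjusted p = 0.0355 and 0.0326), and had 1.09 and 0.78 without a call in Drosha cKO sperm. The neighbours of miR-106b-3p were farther away, with miR-466b-3p at 0.77, miR-340-3p at 0.97 and miR-467d-5p at 1.04. Among the members, miR-93-5p and miR-25-3p were nearest to each other (0.54), and the arms of miR-106b were farthest apart (2.79).

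In the oocyte and 2PN libraries the cluster was read as miR-25-3p and miR-106b-5p. These groups have 1 library each, so differences have no replicate check and no test, and ratios of CPM carry an exact 95% interval for counting error only. The WT oocyte library held 14 reads of miR-25-3p (2532 CPM) and 8 of miR-106b-5p (1447 CPM), and 0 of miR-93-5p and of miR-106b-3p. Against WT sperm replicates 1 and 2, miR-93-5p was at least 26.4-fold and 23.1-fold lower, taking 3 reads as the floor in the oocyte library. For miR-106b-3p the same floor gives 1.28-fold and 1.20-fold, too near 1 to be read as lower. The exact 95% upper limit of its 0 oocyte reads is 0.0667% of listed reads. That limit is above the 0.0649% of WT sperm replicate 2 and within the interval of replicate 1, 0.0518% to 0.0914%. miR-106b-5p stood 2.65 (1.07 to 5.75) and 2.11 (0.899 to 4.25) times the WT sperm levels, and miR-25-3p 1.64 (0.871 to 2.87) and 2.28 (1.23 to 3.89) times. Only 1 of the 2 intervals excludes 1 for each of them.

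The 2PN embryos showed the same 2 arms. miR-25-3p had 5 reads (1542 CPM) in embryos from WT sperm, 7 (2372 CPM) from Dicer cKO sperm and 33 (3680 CPM) from Drosha cKO sperm. miR-106b-5p had 3 (925 CPM), 1 (339 CPM) and 30 (3346 CPM). miR-93-5p had 0, 0 and 2 reads, and miR-106b-3p had 0 in all 3, where 3 reads equal 925, 1017 and 335 CPM. Embryos from Drosha cKO sperm thus had the highest values of both arms in the deepest of the 3 libraries.

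Against embryos from WT sperm, miR-106b-5p in embryos from Drosha cKO sperm was at a ratio of 3.62 (1.12 to 18.5) and miR-25-3p at 2.39 (0.926 to 7.83). In embryos from Dicer cKO sperm the ratios were 0.366 (0.00698 to 4.56) and 1.54 (0.420 to 6.15), which no direction can be read from. Embryos from WT sperm against the oocyte library gave 0.639 (0.109 to 2.66) for miR-106b-5p and 0.609 (0.172 to 1.79) for miR-25-3p. All miR-106b reads were on the 5p arm in these 4 libraries, which is best bounded in embryos from Drosha cKO sperm, with 30 of 30 reads (95% exact interval 88.4% to 100%). The early embryo markers (6 miRNAs of the miR-290 cluster) held 2.93% of listed reads in the oocyte library, 4.04% in embryos from WT sperm, 0.339% from Dicer cKO and 1.42% from Drosha cKO sperm, against at most 0.0504% in sperm.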

How the data were processed

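The authors deposited raw read counts of 1592 mature miRNAs and 712 endo-siRNAs in 11 libraries. Their deposited RPM values equal the counts over a whole number per library, from 412523 to 3743577, of a meaning not given in the sources used here. Bowtie and the mouse build mm10 are named in the submitters' processing notes, with versions and counting rule not given in the sources used here. The series text names the Ion Torrent Proton and duplicates, whereas the labels name an Illumina preparation and the library numbers used here.

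The deposited counts of the 7 sperm libraries were fitted by group in edgeR 4.0.16 (R 4.3.3; TMM factors, the default low-count filter leaving 335 features, quasi-likelihood test, two-sided, Benjamini-Hochberg adjustment, threshold 0.05). The TMM factors of the WT libraries were 0.899 and 0.497, those of Dicer cKO 1.05 and 1.06 and those of Drosha cKO 1.19 to 1.30. The biological coefficient of variation was 0.459. CPM uses all listed reads. Replicates differed beyond counting error, with chi-square values per degree of freedom of 5.74 to 42.0 over features with at least 10 reads in a pair. Over the members alone, at most 4 miRNAs a pair, they ran from 1.02 in Dicer cKO to 3.31 in Drosha cKO replicates 1 and 2. The 5p and 3p arms were compared with edgeR's test of differential use within a hairpin. DESeq2 1.42.0 and limma 3.58.1, on log2 of RPM plus 1 or 10, were alternatives, as were other scalings, filters and samples. Exact intervals and permutation tests used scipy 1.17.1. The scripts were tested on simulated data.

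The members, gene lists and tests were chosen with earlier results of these data known. Named besides the members are the other arms of their hairpins, every tested miRNA of the paralogous clusters and seed groups, and the 3 nearest miRNAs of each member (prior count 0.5).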

Additional observations from a re-analysis of the deposited data

Results flagged for a closer look

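miR-25-3p was lower in both kinds of cKO sperm than in WT sperm, but its CPM in the 2PN library from Dicer cKO sperm was 1.54 times, and in that from Drosha cKO sperm 2.39 times, the CPM in the 2PN library from WT sperm. These were listed because the embryo ratios lie above 1 where the sperm levels were lower under the same contrast. The difference was not tested, since each kind of embryo has 1 library, and both counting intervals, 0.420 to 6.15 and 0.926 to 7.83, include 1, so no direction can be read for the embryos.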

How the results depend on the processing

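In 19 alternatives per comparison the number of members called stayed at 3 or 4 for Drosha cKO against WT and ran from 1, without the low-count filter, to 4 for Dicer cKO against WT. Leaving out a library in turn gave 2 to 4 for Dicer and 3 to 3 for Drosha. Between the cKOs 0 members were called in all 19 alternatives. Where a group of 2 loses a library, the lone one is assumed to vary like the other groups.

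The arm difference of miR-106b ran from 4.73 to 5.15 (edgeR adjusted p from 0.00147 to 0.0721) in Dicer cKO and from 3.29 to 5.73 (0.00858 to 0.0905) in Drosha cKO sperm when a library was left out. In Drosha cKO sperm it was 3.40 (adjusted p = 0.239) without the low-count filter and 2.93 (0.193) without the 2 shallow libraries. Between the cKOs it ran from -0.86, without Drosha cKO replicate 1, to 1.59. The log2 ratio of the summed share, -1.50 for Dicer and -1.81 for Drosha cKO, ran from -1.61 to -1.39 and from -2.05 to -1.63, and was -2.97 for Drosha with RPM. The 5p share differed by 45.2 to 52.6 and 43.5 to 50.9 percentage points.

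When a library was left out, the log2 value of miR-106b-5p in Drosha cKO sperm ran from -0.22, without WT replicate 1, to 1.04. For Dicer minus Drosha cKO, miR-106b-3p ran from -1.0015 to 1.70 and miR-93-5p from -0.0029 to 0.82. In that comparison miR-106b-3p also turned to 0.42 with the authors' divisor, 0.13 without the low-count filter, 0.088 with at least 10 CPM in 2 libraries, 1.07 and 0.26 in limma with pseudocounts 1 and 10, and 1.70 without Drosha cKO replicate 1, and miR-93-5p to -0.30 without the shallow libraries and -0.0029 without Drosha cKO replicate 3. With a prior count of 2, only 1 of 3 neighbours of miR-106b-3p was shared. The cause was not tested in any of these. In the Dicer comparison, miR-106b-3p lost its call without the low-count filter (edgeR adjusted p = 0.0661) and in limma (0.0728 and 0.0507).

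Replicate numbers are shared by the groups, but the labels do not say that they pair libraries. Deviations of same-numbered libraries from their group means correlated at 0.181 to 0.312 over 2 pairs a comparison. In a group of 2 libraries these deviations are equal and opposite. The 2 pairs of WT with Dicer cKO therefore give the same value, 0.312, and count as 1 observation. With a replicate block 4 members were called in Dicer cKO sperm, miR-106b-5p at 1.49 (edgeR adjusted p = 0.0384), and 3 in Drosha cKO sperm, and the arm difference was 4.95 and 3.38 (adjusted p = 1.38e-05 and 0.0174).

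Depth limits the oocyte and 2PN libraries most, where 3 reads equal 335 to 1017 CPM.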
